A study of Mus musculus with 28 samples.

Results

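Whole livers of mice that lacked focal adhesion kinase (FAK) in the liver epithelium, and that had not been given the fibrosis-inducing DDC diet (3,5-diethoxycarbonyl-1,4-dihydrocollidine), were compared with livers of littermate controls across all genes. This comparison takes in 8 of the 28 RNA-Seq libraries of the series, 4 FAK KO and 4 FAK WT livers, chosen by their labels. All mice were FVB, were 6 to 8 weeks old and carried 2 floxed FAK alleles: KO mice were FAKfl/fl Alb-Cre+ and WT mice were FAKfl/fl Alb-Cre-. Alb-Cre is driven by the albumin promoter and recombines in hepatocytes and in bile duct cells, so endothelial cells, stellate cells, Kupffer cells and other cells of a KO liver keep the gene. The other libraries used here for side-by-side values were hepatocytes isolated from mice of the same 2 genotypes (4 KO, 4 WT) and whole livers of KO and WT mice fed DDC (3 KO, 3 WT of the bred cross). For Agtr1a only, livers of DDC-fed FAKfl/fl mice given a viral vector with or without Cre (3 KO, 3 WT) were read too. Elsewhere, DDC-fed livers are those of the bred cross. The labels give each library its own number without saying in words that each is a separate animal, so p-values measure only the spread between these samples. The labels of these 8 libraries do not state sex. The paper used both sexes in other experiments, and the part of sex in the differences below was not tested.

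FAK, encoded by Ptk2, is a non-receptor tyrosine kinase that is recruited to integrins at focal adhesions, where it autophosphorylates and docks SRC, and it passes signals from the extracellular matrix and from growth factor receptors to pathways of migration, growth and survival. Its nearest relative, PYK2, is encoded by Ptk2b. In liver, hepatocytes carry out metabolism and the synthesis of plasma proteins, bile duct cells line the ducts of the portal tract, and portal fibroblasts and stellate cells make most of the matrix.

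Each library had 11162678 to 19049138 reads counted in genes, and 12507 of 35275 genes in the table passed the filter on low counts. Levels are given as deposited FPKM (fragments scaled to gene length and to the library's total), and differences as log2 changes, KO minus WT, from edgeR's quasi-likelihood test on counts. Hepatocyte markers were high, Alb having 12065 to 18385 FPKM in KO livers and 16901 to 28522 FPKM in WT livers. The pancreatic markers Prss2 and Cpa1 and the fat marker Plin1 were at 0 in all 8 libraries, and the muscle markers Acta1 and Ckm at 0 in KO livers and up to 0.0742 FPKM in WT livers. Cela1, another pancreatic marker, had 93.99 to 114 FPKM in KO livers and 55.6 to 151 FPKM in WT livers, and up to 91.7 FPKM in isolated hepatocytes. In bulk tissue, fewer cells of a type and less RNA per cell cannot be told apart.

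The WT libraries differed among themselves in a way that followed gene length. WT 2 and WT 4 had more reads on long genes and fewer on short ones: genes under 1 kb took 12.1%, 11.8%, 10.1% and 10.3% of the counts in KO livers, against 11.8%, 6.47%, 10.01% and 7.08% in WT livers. Across genes, the log2 change between KO and WT ran with length (Spearman correlation -0.438, over genes, which are not independent replicates). With genes in 10 bins of equal size by length, the median change was 0.26 in the shortest bin and -0.35 in the longest, and 401 genes of the longest bin were lower at an unadjusted p under 0.05 against 13 higher. After a smooth curve on log2 gene length was subtracted from each library, this correlation was -0.016 and the longest bin held 96 higher and 114 lower. Any true effect of FAK loss that followed gene length was subtracted with it. WT 2 and WT 4 still stood apart after the correction: on the first principal component of the 8 livers (26.4% of the variance) they scored 42.3 and 33.1, against -28.8 to -1.6 for the KO livers, -19.9 for WT 1 and 10.5 for WT 3. Unless marked "as counted", log2 changes below are those with the length trend removed, and FPKM values are those deposited, which keep the trend.

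**Figure D1:**
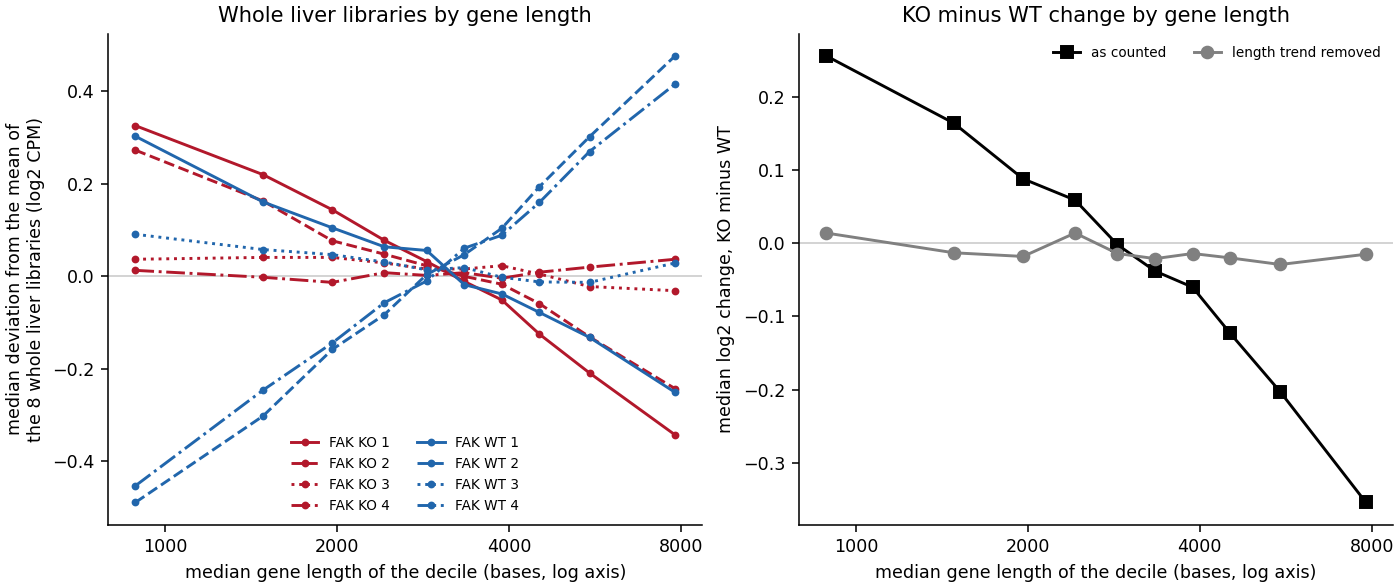
Left, median deviation of the genes in each of 10 length bins from the mean of the 8 whole liver libraries (y axis, log2 CPM, counts scaled to the library total) against the median length of the bin (x axis, bases, log axis), with KO livers in red and WT livers in blue. WT 2 and WT 4 slope upward with length and KO 1, KO 2 and WT 1 downward, while KO 3, KO 4 and WT 3 are nearly flat. Right, median log2 change, KO minus WT, for the same bins: as counted (black) it goes between 0.26 and -0.35, and with the trend removed (grey) it stays near 0.

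Only the deleted gene and 1 other passed the test across all genes. At an adjusted p under 0.05, 0 genes were higher and 2 were lower in KO livers, Ptk2 and Agtr1a (0.016% of the genes tested); as counted, Ptk2 alone was called (0.008%). At an unadjusted p under 0.05 there were 755 higher and 917 lower (6.04% and 7.33%), and 795 and 1222 (6.36% and 9.77%) as counted. These shares of all genes are the background for the counts at that threshold in the gene lists below, several of which lie near it. Over all genes the median log2 change was -0.01, 6039 were higher and 6468 lower, and 123 had a log2 change above 1 and 183 one below -1. The 4 KO values lay wholly above the 4 WT values for 344 genes (2.75%) and wholly below them for 375 (3%), 5.75% together (5.14% as counted). Except for Ptk2 and Agtr1a, the differences between single genes described below are values with their errors and not calls. The number of calls rested on 1 library: without WT 1, 135 genes were higher and 99 lower at an adjusted p under 0.05 (400 and 594 as counted). WT 1 was the WT liver that scored among the KO livers on the first principal component, so leaving it out favours a larger difference between the groups. Calls made without WT 1, here and below, are therefore no support for a gene. Leaving out any other single library gave 1 call, Ptk2. With no library left out, DESeq2 in the same model called 28 higher and 85 lower.

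Ptk2 (chr15:73205105-73423191, build mm10) was read at 1.43, 1.20, 1.17 and 1.45 FPKM in KO livers, against 3.65, 5.18, 5.38 and 6.67 FPKM in WT livers. Every KO liver was below every WT liver, and the KO livers differed little from each other. It fell by 1.89 on the log2 scale (SE 0.14, adjusted p = 2.46e-06; exact permutation p over the 4 and 4 livers 0.0286, two-sided, the smallest that this design allows), and was called in 21 of 21 settings of the analysis. In isolated hepatocytes the change was -2.47 ± 0.14 (adjusted p = 4.47e-08), a difference from whole liver of 0.58 ± 0.20 that did not pass after adjustment (unadjusted p = 0.00880, adjusted p = 0.434). Ptk2b, the relative that is intact in these mice, was read at 7.70, 8.61, 11.7 and 11.8 FPKM in KO livers, against 8.13, 14.9, 9.03 and 12.3 FPKM in WT livers. Its groups overlapped, with a log2 change of -0.08 ± 0.21 (adjusted p = 0.896), so no difference in the transcript of the second kinase was detectable.

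Agtr1a (chr13:30336441-30382867), the type 1a receptor for angiotensin II that hepatocytes express, was read at 12.01, 13.3, 14.01 and 13.5 FPKM in KO livers, against 18.9, 24.9, 23.1 and 20.6 FPKM in WT livers. The KO livers lay in a narrow band below all WT livers. Agtr1a fell by 0.80 on the log2 scale (SE 0.13, adjusted p = 0.0470; exact permutation p 0.0286). The call lies at the threshold: it was made in 9 of 21 settings, with log2 changes of -0.88 to -0.68 and adjusted p of 2.98e-05 to 0.416, and it was lost as counted, when any KO liver was left out, and without WT 2, WT 3 or WT 4. In isolated hepatocytes the change was -0.15 ± 0.13 (adjusted p = 0.795), and the difference between whole liver and hepatocytes was -0.66 ± 0.18 (unadjusted p = 0.00184, adjusted p = 0.316). In DDC-fed livers of the bred cross the change of Agtr1a was 0.18 ± 0.15 (adjusted p = 0.496). In the DDC-fed livers where a viral vector had deleted FAK it was 0.68 ± 0.15 (adjusted p = 0.0356), opposite in sign to that without DDC.

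**Figure D2:**
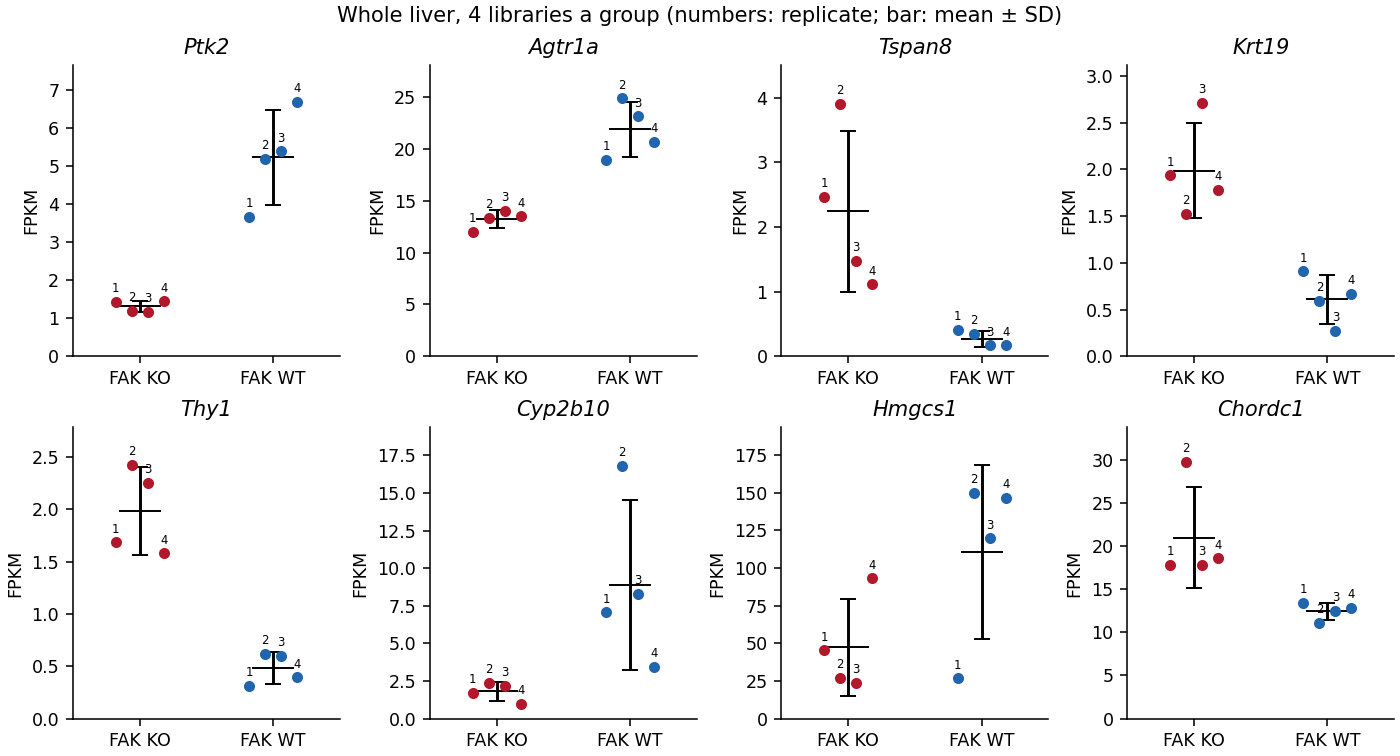
FPKM (y axes, from 0) of 8 genes in each whole liver library, FAK KO (red) left of FAK WT (blue), with the replicate number beside each point and the mean ± SD as a bar. Ptk2, Agtr1a, Tspan8, Krt19, Thy1, Cyp2b10 and Chordc1 show no overlap of the 4 KO and 4 WT values, while Hmgcs1 is low in WT 1 as well as in KO 1 to 3.

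Genes that work with FAK were near even. Of the FAK signalling partners, 10 of 27 were higher and 17 lower (median log2 change -0.08), with 0 higher and 1 lower at an unadjusted p under 0.05, and the gene at that threshold was Ptk2 itself. Of the focal adhesion adaptors, 12 of 26 were higher and 14 lower (median log2 change 0.00), with 1 higher and 1 lower at an unadjusted p under 0.05. Lims1, which encodes the adaptor PINCH1 of the integrin-linked kinase complex, was read at 7.35, 7.33, 7.70 and 7.41 FPKM in KO livers, against 5.28, 6.24, 5.11 and 6.45 FPKM in WT livers: all KO livers were higher, by a log2 change of 0.45 ± 0.11 (adjusted p = 0.193; called without WT 1). Fermt2, encoding kindlin-2, an activator of integrins, had 32.3 to 40.1 FPKM in KO livers and 41.6 to 45.8 FPKM in WT livers (log2 change -0.29 ± 0.10, SE, adjusted p = 0.240). Crk, an adaptor downstream of FAK, had 24.98 to 30.7 FPKM in KO livers and 22.8 to 28.4 FPKM in WT livers (log2 change 0.24 ± 0.13, SE, adjusted p = 0.430). As counted, 4 higher and 23 lower (median -0.15) of the signalling partners stood against the 10 and 17 given here; their median length was 4290 bases, against 3090 bases for all genes.

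Of the integrins, 5 of 17 were higher and 12 lower (median log2 change -0.14), with 0 higher and 2 lower at an unadjusted p under 0.05. Itga1, the alpha chain of a collagen and laminin receptor, was read at 1.75, 2.01, 2.72 and 2.63 FPKM in KO livers, against 2.56, 4.34, 3.12 and 4.25 FPKM in WT livers. The same-strand gene model Gm49395 overlaps Itga1, so its count is uncertain. Itga7, the alpha chain of a laminin receptor, was read at 1.44, 1.56, 1.14 and 1.56 FPKM in KO livers, against 1.72, 2.93, 1.75 and 2.09 FPKM in WT livers. In both, KO livers lay below WT livers once the length trend was removed (log2 change -0.44 ± 0.15, SE, adjusted p = 0.239 for Itga1; -0.51 ± 0.19, adjusted p = 0.280, for Itga7).

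Among the genes with the largest positive log2 changes and no overlap of the groups, several are known from ducts and portal tracts. Tspan8, a tetraspanin of epithelial membranes, was read at 2.47, 3.91, 1.48 and 1.11 FPKM in KO livers, against 0.412, 0.351, 0.171 and 0.172 FPKM in WT livers (log2 change 2.82 ± 0.59, SE, adjusted p = 0.193), from read counts of 58, 99, 37 and 26 in KO livers, against 7, 8, 3 and 5 in WT livers. Anxa13, an annexin of epithelial cells, had 1.40 to 2.63 FPKM in KO livers and 0.287 to 0.392 FPKM in WT livers (log2 change 2.03 ± 0.50, SE, adjusted p = 0.193), and Krt19, a keratin of bile duct cells, was read at 1.94, 1.52, 2.71 and 1.78 FPKM in KO livers, against 0.909, 0.594, 0.275 and 0.666 FPKM in WT livers (log2 change 1.53 ± 0.48, SE, adjusted p = 0.221). All 3 were low in every liver, with the KO values above the WT values throughout. Thy1, a surface protein of portal fibroblasts and T cells, was read at 1.68, 2.42, 2.25 and 1.58 FPKM in KO livers, against 0.310, 0.616, 0.5998 and 0.393 FPKM in WT livers (log2 change 1.89 ± 0.36, SE, adjusted p = 0.185), and Mgp, encoding matrix Gla protein, at 6.29, 6.93, 3.67 and 3.81 FPKM in KO livers, against 0.749, 1.01, 1.45 and 1.58 FPKM in WT livers (log2 change 1.69 ± 0.60, SE, adjusted p = 0.267). Tspan8 and Thy1 were called without WT 1. Eln, which encodes elastin and is made by portal fibroblasts, was read at 3.19, 3.93, 2.53 and 1.94 FPKM in KO livers, against 0.451, 1.89, 0.906 and 0.976 FPKM in WT livers; its KO livers were higher (log2 change 1.41 ± 0.48, SE, adjusted p = 0.246), although on the length-corrected scale the groups overlapped. Tff2, a trefoil peptide of mucous epithelia, had 1.12 to 2.37 FPKM in KO livers and 0 to 0.229 FPKM in WT livers, from counts of 14, 23, 16 and 10 in KO livers, against 0, 2, 1 and 2 in WT livers, so its fitted log2 change (3.02 ± 0.66) depends on the prior count and is no measure of the fold.

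Not all markers of these cells had higher levels. Of the biliary markers, 13 of 18 were higher and 5 lower (median log2 change 0.26), with 4 higher and 0 lower at an unadjusted p under 0.05. Their summed level, which keeps the length trend, was 231 to 283 FPKM in KO livers and 163 to 206 FPKM in WT livers, with no overlap. With the trend removed, the median deviation of the biliary markers from the mean of the 8 livers did overlap. It was 0.07, 0.39, 0.30 and 0.08 in KO livers, against -0.34, 0.15, -0.60 and -0.04 in WT livers. Without WT 1, 12 of 20 were higher and 8 lower (median 0.45), and without WT 2 and WT 4 there were 19 higher and 2 lower (median 0.75). Tm4sf4, a tetraspanin relative of hepatocytes and ducts and the highest contributor named here, was read at 106, 115, 103 and 85.1 FPKM in KO livers, against 78.4, 61.8, 55.2 and 59.4 FPKM in WT livers (log2 change 0.50 ± 0.16, SE, adjusted p = 0.224). Spp1, osteopontin, was read at 18.1, 21.6, 13.2 and 14.6 FPKM in KO livers, against 10.1, 11.4, 7.37 and 11.8 FPKM in WT livers (log2 change 0.52 ± 0.27, SE, adjusted p = 0.424). The same-strand gene model Gm42793 overlaps Spp1, so its count is uncertain. The bile duct markers Krt7, Epcam and Sox9 overlapped, with Sox9 at 0.314 to 1.44 FPKM in KO livers and 0.273 to 1.86 FPKM in WT livers and Epcam at 0.954 to 1.21 FPKM in KO livers and 0.085 to 1.11 FPKM in WT livers. Of the portal fibroblast and mesothelial markers, 7 of 11 were higher and 4 lower (median log2 change 0.22), with 2 higher and 0 lower at an unadjusted p under 0.05, and without WT 2 and WT 4 there were 10 higher and 1 lower (median 1.64). Dpt, another of their markers, overlapped (0.478 to 1.27 FPKM in KO livers and 0.371 to 1.72 FPKM in WT livers). In the stellate cell list 6 of 22 were higher and 16 lower (median log2 change -0.14), in the endothelial list 13 of 27 were higher and 14 lower (median log2 change -0.01) and in the Kupffer cell list 11 of 22 were higher and 11 lower (median log2 change -0.01). Without WT 2 and WT 4 the stellate cell list held 12 higher and 10 lower (median 0.03) and the Kupffer cell list 14 higher and 9 lower (median 0.09). The part that cell makeup had in the levels of duct and portal genes was not tested.

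The remaining large positive changes fell in no one group. Cib3, a calcium and integrin binding family member, was read at 13.9, 57.2, 13.97 and 31.8 FPKM in KO livers, against 1.53, 3.10, 4.56 and 3.82 FPKM in WT livers (log2 change 2.77 ± 0.59, SE, adjusted p = 0.193). Mup20, which encodes the major urinary protein darcin and belongs to a family of near-identical copies among which reads can be misassigned, was read at 2895, 4429, 1851 and 2106 FPKM in KO livers, against 1215, 197, 785 and 429 FPKM in WT livers (log2 change 1.93 ± 0.76, SE, adjusted p = 0.296). Cxcl14, a chemokine, was read at 2.74, 9.85, 2.01 and 2.47 FPKM in KO livers, against 0.590, 0.477, 1.62 and 0.950 FPKM in WT livers, with most of the difference in KO 2. In DDC-fed livers Cib3 and Mup20 were lower in KO (log2 changes -1.53 ± 0.32, adjusted p = 0.02001, and -3.14 ± 0.73, adjusted p = 0.0285), the opposite sign to that without DDC. Acyp2, a muscle-type acylphosphatase, had 2.33 to 5.41 FPKM in KO livers and 0.620 to 1.45 FPKM in WT livers (log2 change 1.54 ± 0.39, SE, adjusted p = 0.193). Slc26a10 (a member of an anion transporter family) had 2.75 to 4.05 FPKM in KO livers and 0.422 to 1.64 FPKM in WT livers (log2 change 1.62 ± 0.46, SE, adjusted p = 0.206) and overlaps B4galnt1 on the other strand. Tes, encoding testin, a protein of focal adhesions and actin fibres, had 0.558 to 2.42 FPKM in KO livers and 0.267 to 0.452 FPKM in WT livers (log2 change 1.61 ± 0.64, SE, adjusted p = 0.294). Anxa4 and Anxa5, encoding calcium-dependent membrane-binding annexins, had log2 changes of 0.30 ± 0.09 (adjusted p = 0.207) and 0.57 ± 0.16 (adjusted p = 0.206). Anxa5 was read at 62.99, 61.9, 44.8 and 58.5 FPKM in KO livers, against 27.2, 35.7, 37.7 and 36.7 FPKM in WT livers, all KO livers being higher, and the summed level of the annexins was 150.3 to 184 FPKM in KO livers and 115 to 146 FPKM in WT livers. Of the annexins, 6 of 9 were higher and 3 lower (median log2 change 0.30), with 4 higher and 1 lower at an unadjusted p under 0.05.

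The largest negative change without overlap was that of Cyp2b10, a cytochrome P450 that is the classical target of the nuclear receptor CAR. It was read at 1.69, 2.35, 2.20 and 0.986 FPKM in KO livers, against 7.06, 16.8, 8.28 and 3.42 FPKM in WT livers, with every KO liver below every WT liver and the WT livers far apart (log2 change -2.43 ± 0.58, SE, adjusted p = 0.193; called without WT 1). In isolated hepatocytes the change was 0.10 ± 0.52 (interaction -2.53 ± 0.78, unadjusted p = 0.00473, adjusted p = 0.417). Its family did not share the size of this difference: of cytochrome P450 families 2 and 3a, 8 of 32 were higher and 24 lower (median log2 change -0.17), with 0 higher and 1 lower at an unadjusted p under 0.05, and without WT 2 and WT 4 there were 20 higher and 14 lower (median 0.05). Trf, transferrin, was read at 4.85, 4.21, 4.51 and 6.94 FPKM in KO livers, against 14.5, 26.7, 25.3 and 7.02 FPKM in WT livers (log2 change -1.89 ± 0.51, SE, adjusted p = 0.194), but it shares its strand with the overlapping gene model Gm20425, so its count is uncertain; its WT 4 value was at the level of the KO livers.

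Slc13a2, a sodium-coupled dicarboxylate and citrate transporter, was read at 0.350, 0.374, 0.708 and 0.270 FPKM in KO livers, against 1.23, 1.08, 1.04 and 0.936 FPKM in WT livers (log2 change -1.36 ± 0.35, SE, adjusted p = 0.193), and was also called lower in KO hepatocytes (log2 change -2.33 ± 0.36, adjusted p = 0.00775). AU020206, a non-coding gene, was at 0.297 to 0.744 FPKM in KO livers and 1.19 to 2.05 FPKM in WT livers (log2 change -1.61 ± 0.49, SE, adjusted p = 0.207). Malat1, a nuclear long non-coding RNA, was read at 0.613, 1.14, 1.55 and 1.80 FPKM in KO livers, against 1.74, 9.94, 3.22 and 6.92 FPKM in WT livers (log2 change -1.76 ± 0.57, SE, adjusted p = 0.223), with WT 2 and WT 4 highest and the lowest WT liver under the highest KO liver in FPKM. The same-strand gene model Gm27694 overlaps Malat1, so its count is uncertain. Low values for non-coding transcripts were more common than high ones: at an unadjusted p under 0.05, 3 of 146 lincRNAs were higher and 17 lower, 1 of 89 antisense genes was higher and 12 lower, and of 11944 protein-coding genes 733 were higher and 857 lower. Their medians were -0.11, -0.17 and -0.01. The part of WT 2 and WT 4 in these counts by gene type was not tested. The strand setting of the read counting is not known, so counts of antisense genes are uncertain. Fam131c was read at 3.17, 3.19, 2.34 and 3.86 FPKM in KO livers, against 4.69, 4.62, 11.4 and 4.58 FPKM in WT livers (log2 change -1.18 ± 0.28, SE, adjusted p = 0.193; called without WT 1), its WT 3 value standing far above the others. Arhgef37, a guanine nucleotide exchange factor, had 0.983 to 1.34 FPKM in KO livers and 1.80 to 3.99 FPKM in WT livers (log2 change -1.24 ± 0.38, SE, adjusted p = 0.207), and Tmie, a transmembrane protein known from hair cells of the inner ear, had 1.44 to 3.77 FPKM in KO livers and 3.96 to 7.51 FPKM in WT livers (log2 change -1.23 ± 0.32, SE, adjusted p = 0.193).

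**Figure D3:**
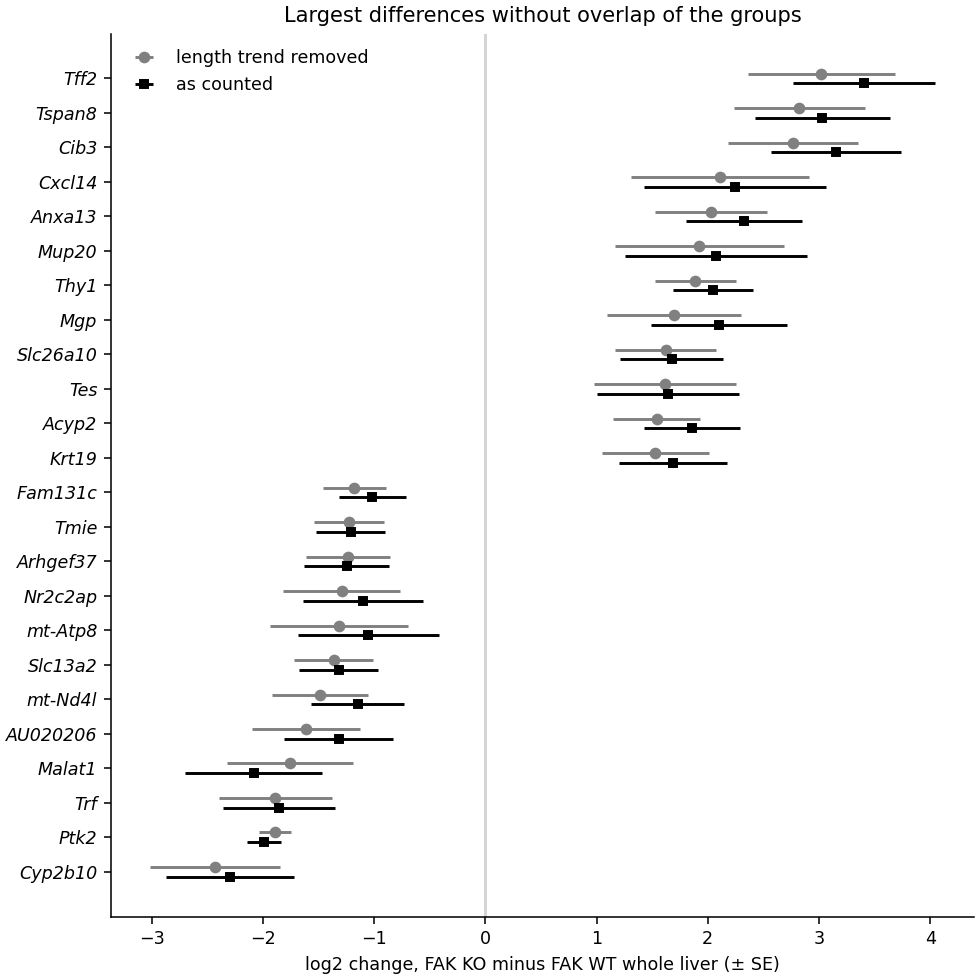
Log2 change, FAK KO minus FAK WT whole liver (x axis, ± SE), of the 12 largest positive and the 12 largest negative changes among genes whose groups did not overlap, with the length trend removed (grey circles) and as counted (black squares). The genes were chosen to have the same sign in the 2 fits, so their agreement in sign is no test of the correction. Ptk2 has a small error beside most others.

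These 24 genes were read in hepatocytes and in DDC-fed livers as well. Of the 12 largest positive changes, 0 were called in hepatocytes (edgeR, adjusted p under 0.05, against 0.344% of all genes), where Tff2, Anxa13 and Mgp were at 0 FPKM in WT cells, and 8 had the same sign in DDC-fed livers, where 5 were called in either direction, against 6.25% of all genes. Among the 12 largest negative changes, which include Ptk2, 2 were called in hepatocytes (Ptk2 and Slc13a2). In DDC-fed livers 6 of 11, the deleted gene Ptk2 among them, had the same sign, and the 1 called was Ptk2. No gene passed the test of the difference between the whole liver and hepatocyte effects after adjustment (0%; 1220 genes, 9.75%, at an unadjusted p under 0.05 and 1002, 8.01%, as counted; 53 called by DESeq2).

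Most genes of sterol synthesis had lower levels in KO livers. The pathway is switched on by SREBP2 when cells are short of cholesterol. Of the cholesterol synthesis genes, 2 of 25 were higher and 23 lower (median log2 change -0.33). At an unadjusted p under 0.05, 0 were higher and 2 lower (over all genes, 6.04% and 7.33%). Hmgcs1, the HMG-CoA synthase of sterol synthesis, was read at 45.4, 26.9, 23.6 and 93.1 FPKM in KO livers, against 26.8, 149.9, 119.8 and 146 FPKM in WT livers (log2 change -1.21 ± 0.60, SE, adjusted p = 0.398), and Sc5d, sterol C5-desaturase, at 85.1, 74.4, 70.6 and 132 FPKM in KO livers, against 76.4, 238, 184 and 218 FPKM in WT livers (log2 change -1.06 ± 0.33, SE, adjusted p = 0.211; called without WT 1). Srebf2, which encodes SREBP2, was read at 8.04, 5.68, 6.69 and 10.96 FPKM in KO livers, against 7.51, 15.1, 11.3 and 14.6 FPKM in WT livers (log2 change -0.48 ± 0.21, SE, adjusted p = 0.334). The list differed between livers of 1 genotype as well: the median deviation of the list from the mean of the 8 livers was 0.29, -0.71, -0.77 and 0.56 in KO livers, against -0.71, 0.42, 0.54 and 0.47 in WT livers (log2). KO 2, KO 3 and WT 1 were low and KO 1, KO 4 and WT 2 to 4 high. Without WT 1, 0 of 25 were higher and 25 lower (median -0.54), and without WT 2 and WT 4 there were 7 higher and 18 lower (median -0.13). In isolated hepatocytes the same list lay on the other side, where 24 of 25 were higher (median 0.69). The interaction for Hmgcs1 was -2.38 ± 0.84 (unadjusted p = 0.0118, adjusted p = 0.434).

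Of the 3 cholesterol synthesis genes named above, Hmgcs1 and Sc5d had the largest negative log2 changes (-1.21 and -1.06). Srebf2 had a lower p than Hmgcs1 (edgeR, unadjusted p = 0.0322 against 0.0588), and its promoter is not shown. The promoters of Hmgcs1 and Sc5d are given as examples. Both are RefSeq sequences of build GRCm38.p6, from 250 bases before to 50 after the start of the gene, 5′ to 3′ on the gene's strand, with each CCAAT box (CCAAT or, on the other strand, ATTGG) in capitals. The CCAAT box is bound by NF-Y, which works with SREBP2 at many sterol genes.
Hmgcs1, chr13:119690101-119690400, plus strand: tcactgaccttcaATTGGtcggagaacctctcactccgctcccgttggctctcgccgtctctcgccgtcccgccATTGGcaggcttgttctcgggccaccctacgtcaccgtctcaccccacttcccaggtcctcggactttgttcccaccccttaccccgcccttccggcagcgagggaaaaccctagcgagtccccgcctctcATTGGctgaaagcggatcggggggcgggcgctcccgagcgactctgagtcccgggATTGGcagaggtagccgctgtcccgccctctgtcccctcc
Sc5d, chr9:42264251-42264550, minus strand: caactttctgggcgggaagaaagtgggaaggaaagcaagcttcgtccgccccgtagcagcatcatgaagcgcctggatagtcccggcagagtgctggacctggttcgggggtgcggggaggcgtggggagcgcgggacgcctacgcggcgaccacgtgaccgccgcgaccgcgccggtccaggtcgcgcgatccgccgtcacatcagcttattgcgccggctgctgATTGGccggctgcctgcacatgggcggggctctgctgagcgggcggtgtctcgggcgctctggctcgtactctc
Of 17 cholesterol synthesis genes with a promoter in the table, 15 (88.2%) held the letters, against 37.9% of 27025 promoters of the same length. A match of letters is a description and not a bound site.

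Related pathways of lipid and glucose metabolism had medians below 0. For fatty acid and triglyceride synthesis, 4 of 24 were higher and 20 lower (median log2 change -0.30), with 0 higher and 5 lower at an unadjusted p under 0.05. Acly, ATP citrate lyase, was read at 32.8, 21.97, 23.5 and 45.96 FPKM in KO livers, against 33.7, 93.3, 53.8 and 58.7 FPKM in WT livers (log2 change -0.83 ± 0.29, SE, adjusted p = 0.251), and Mlxipl, which encodes the carbohydrate-responsive factor ChREBP, at 8.26, 6.09, 11.3 and 8.79 FPKM in KO livers, against 9.78, 16.8, 10.1 and 19.9 FPKM in WT livers (log2 change -0.67 ± 0.20, SE, adjusted p = 0.207). Pklr, liver pyruvate kinase and a target of ChREBP, was read at 20.4, 17.9, 24.4 and 23.5 FPKM in KO livers, against 25.4, 37.3, 28.4 and 42.8 FPKM in WT livers, with no overlap (log2 change -0.64 ± 0.22, SE, adjusted p = 0.249). Acly overlapped through WT 1, and Mlxipl through WT 1 and WT 3. Without WT 2 and WT 4 the fatty acid synthesis list held 10 higher and 14 lower (median -0.13).

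For fatty acid oxidation and PPARA targets, 6 of 34 were higher and 28 lower (median log2 change -0.17), with 0 higher and 4 lower at an unadjusted p under 0.05. Acot2, a mitochondrial acyl-CoA thioesterase, was read at 1.06, 0.520, 1.53 and 0.949 FPKM in KO livers, against 1.18, 4.08, 1.94 and 3.49 FPKM in WT livers (log2 change -1.49 ± 0.47, SE, adjusted p = 0.215). Hadha, the alpha subunit of the mitochondrial trifunctional protein, had 68.2 to 83.1 FPKM in KO livers and 71.2 to 114 FPKM in WT livers (log2 change -0.27 ± 0.10, SE, adjusted p = 0.257). In the gluconeogenesis list, 3 of 24 were higher and 21 lower (median log2 change -0.31), with 0 higher and 5 lower at an unadjusted p under 0.05. Pcx, pyruvate carboxylase, was read at 103, 86.2, 115 and 129.5 FPKM in KO livers, against 105, 172, 130.1 and 185 FPKM in WT livers (log2 change -0.36 ± 0.12, SE, adjusted p = 0.243), and Ppargc1a, a coactivator of the fasting response, at 0.622, 0.697, 0.660 and 0.857 FPKM in KO livers, against 0.610, 2.69, 1.31 and 1.26 FPKM in WT livers (log2 change -0.77 ± 0.28, SE, adjusted p = 0.271). The list's median deviation was -0.14, -0.23, -0.08 and -0.03 in KO livers, against -0.24, 0.32, 0.21 and 0.29 in WT livers: WT 2, WT 3 and WT 4 were high, and WT 1 was as low as the lowest KO liver. Without WT 2 and WT 4 there were 7 higher and 17 lower (median -0.13) in this list and 18 higher and 16 lower (median 0.02) in that of fatty acid oxidation.

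Lobule zones were compared with periportal and pericentral genes. Of the periportal hepatocyte genes, 5 of 28 were higher and 23 lower (median log2 change -0.28). At an unadjusted p under 0.05, 1 was higher and 9 lower (over all genes, 6.04% and 7.33%). In 4 of the 28 the KO values were wholly below the WT values (over all genes, 3%). Without WT 2 and WT 4 there were 5 higher and 23 lower (median -0.27). Gldc, glycine decarboxylase, was read at 30.01, 42.4, 46.5 and 50.3 FPKM in KO livers, against 55.96, 94.3, 51.2 and 64.2 FPKM in WT livers (log2 change -0.61 ± 0.17, SE, adjusted p = 0.206), and Etnppl, ethanolamine-phosphate phospho-lyase, at 30.8, 21.7, 27.6 and 29.9 FPKM in KO livers, against 39.5, 88.5, 48.6 and 44.3 FPKM in WT livers (log2 change -1.03 ± 0.32, SE, adjusted p = 0.215); neither overlapped. The pericentral genes had no such tilt, and 11 of 26 were higher and 15 lower (median log2 change -0.05), with 3 higher and 1 lower at an unadjusted p under 0.05; without WT 2 and WT 4 they held 14 higher and 12 lower (median 0.05). Glul, glutamine synthetase of the cells around the central vein, was read at 243, 174, 245 and 304 FPKM in KO livers, against 196, 273, 295 and 289 FPKM in WT livers (log2 change -0.14 ± 0.23, SE, adjusted p = 0.830), and Gstm2, a glutathione S-transferase, at 67.1 to 106 FPKM in KO livers and 49.8 to 81.1 FPKM in WT livers (log2 change 0.08 ± 0.21, SE, adjusted p = 0.906). Slc1a2, a glutamate transporter of the same zone, had 6.99 to 13.3 FPKM in KO livers and 6.06 to 11.2 FPKM in WT livers (log2 change 0.67 ± 0.30, SE, adjusted p = 0.348), and Rnf43, a membrane ligase that limits WNT signalling, 5.22 to 7.95 FPKM in KO livers and 3.22 to 6.52 FPKM in WT livers (log2 change 0.57 ± 0.23, SE, adjusted p = 0.306). In isolated hepatocytes the pericentral list was high, where 25 of 26 were higher (median 0.81). The change of Glul there was 2.03 ± 0.24 (adjusted p = 7.35e-04), and that of Slc1a2 2.70 ± 0.31 (adjusted p = 7.35e-04). On its own, the difference between whole liver and hepatocytes was -2.17 ± 0.33 for Glul (unadjusted p = 5.06e-06, adjusted p = 0.0633).

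**Figure D4:**
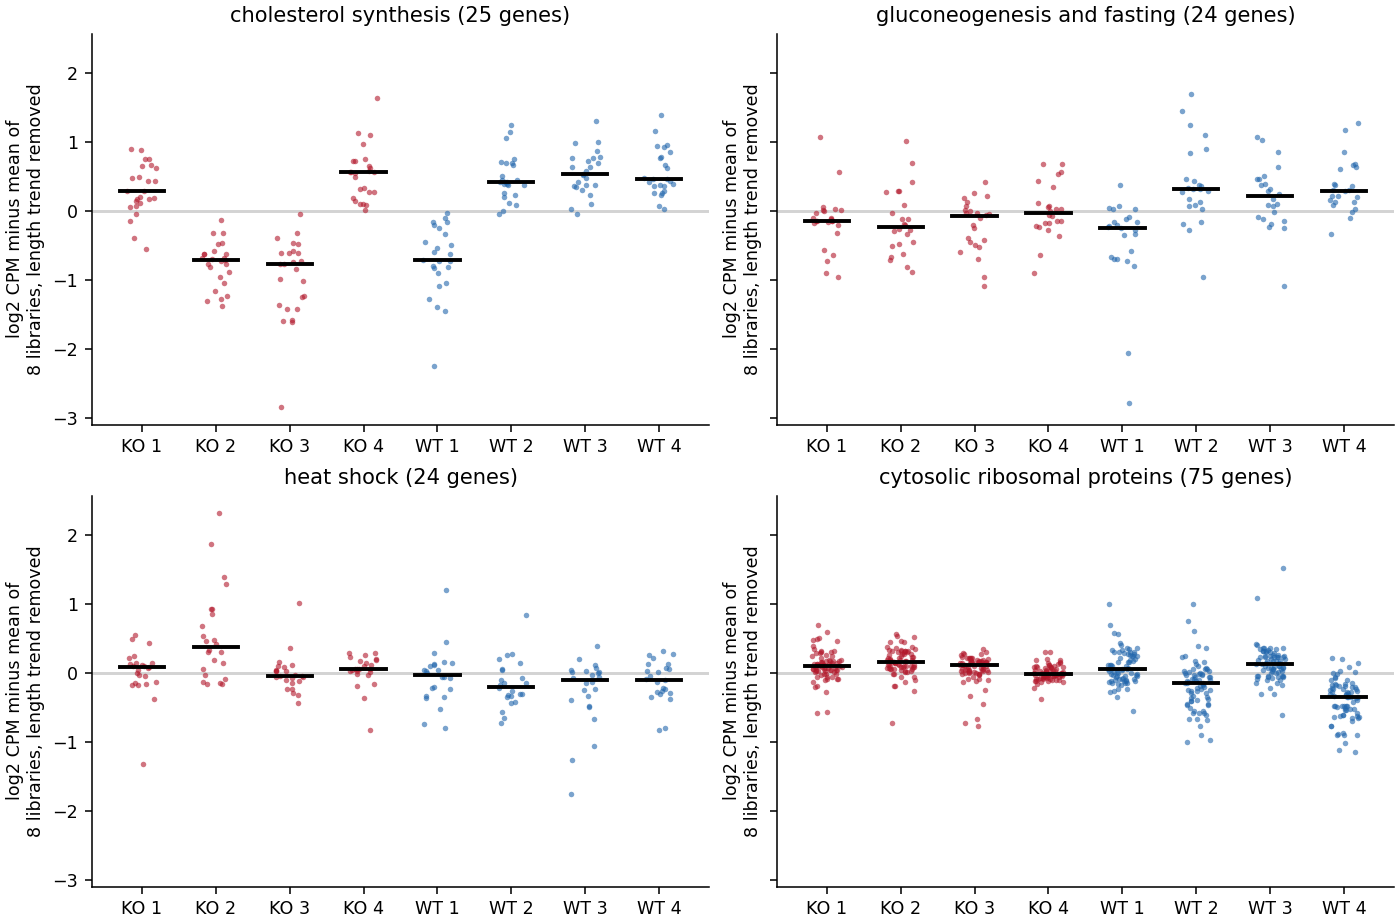
Each point is 1 gene of a list in 1 whole liver library, as log2 CPM minus the mean of the 8 libraries, with the length trend removed (y axes); KO livers are red and WT livers blue, and black bars are medians. Cholesterol synthesis genes are low in KO 2, KO 3 and WT 1, gluconeogenesis genes are high in WT 2 to 4, and heat shock genes are highest in KO 2 (median 0.39).

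Genes of bile acids and plasma proteins had smaller differences. In the bile acid list 11 of 27 were higher and 16 lower (median log2 change -0.10), with 0 higher and 5 lower at an unadjusted p under 0.05, and without WT 2 and WT 4 there were 15 higher and 12 lower (median 0.02). Cyp8b1, sterol 12-alpha-hydroxylase, which sets the share of cholic acid, was read at 123, 51.9, 45.7 and 113 FPKM in KO livers, against 106, 154, 171 and 195 FPKM in WT livers (log2 change -1.03 ± 0.30, SE, adjusted p = 0.207). Slc10a1, the basolateral bile acid uptake transporter NTCP, was read at 240.1, 187, 215 and 233 FPKM in KO livers, against 267, 333, 237 and 312 FPKM in WT livers with no overlap after correction (log2 change -0.56 ± 0.16, SE, adjusted p = 0.207), and Abcb11, the canalicular bile salt export pump, had 61.8 to 95.7 FPKM in KO livers and 79.9 to 159 FPKM in WT livers (log2 change -0.37 ± 0.12, SE, adjusted p = 0.224). Of the coagulation genes, 5 of 25 were higher and 20 lower (median log2 change -0.21), with 0 higher and 7 lower at an unadjusted p under 0.05. With WT 2 and WT 4 left out, 6 were higher and 20 lower (median -0.09), with 0 higher and 1 lower at that threshold. Proz, protein Z, was read at 125, 126, 144 and 135 FPKM in KO livers, against 146, 171, 156 and 161 FPKM in WT livers (log2 change -0.31 ± 0.09, SE, adjusted p = 0.207). Of the acute phase genes, 6 of 26 were higher and 20 lower (median log2 change -0.19), with 0 higher and 4 lower at an unadjusted p under 0.05. With WT 2 and WT 4 left out, 9 were higher and 17 lower (median -0.16). Itih4, an inter-alpha-trypsin inhibitor heavy chain, had 325 to 412 FPKM in KO livers and 421 to 714 FPKM in WT livers (log2 change -0.46 ± 0.15, SE, adjusted p = 0.223). The complement genes were evenly split: 13 of 26 were higher and 13 lower (median log2 change 0.00), with 0 higher and 3 lower at an unadjusted p under 0.05; C3 had 970.2 to 1512 FPKM in KO livers and 1165 to 2885 FPKM in WT livers (log2 change -0.45 ± 0.19, SE, adjusted p = 0.322). In isolated hepatocytes, 1 of 25 coagulation, 3 of 26 acute phase and 5 of 26 complement genes were higher (medians -0.23, -0.36 and -0.21).

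Most genes of glutathione metabolism and of protein folding had higher levels in KO livers. NRF2 is a transcription factor that induces glutathione and detoxification genes under oxidative stress. Of the NRF2 and glutathione genes, 24 of 30 were higher and 6 lower (median log2 change 0.19), with 6 higher and 0 lower at an unadjusted p under 0.05, against 25 higher and 5 lower (median 0.34) as counted, and without WT 1, 18 of 30 were higher and 12 lower (median 0.11). Their summed level was 9722 to 12847 FPKM in KO livers and 4690.2 to 8089.6 FPKM in WT livers, with no overlap. Gstm3, a glutathione S-transferase, was read at 161, 109, 68.8 and 171 FPKM in KO livers, against 26.5, 54.8, 80.04 and 67.6 FPKM in WT livers (log2 change 0.91 ± 0.37, SE, adjusted p = 0.307), Nqo1, a quinone reductase, at 4.76, 3.64, 3.93 and 4.53 FPKM in KO livers, against 2.19, 3.18, 2.46 and 2.57 FPKM in WT livers (log2 change 0.50 ± 0.19, SE, adjusted p = 0.282), and Mgst1, the microsomal glutathione transferase, at 3445, 3020.2, 2562 and 2923 FPKM in KO livers, against 2465, 1381, 2383 and 2076 FPKM in WT livers (log2 change 0.31 ± 0.12, SE, adjusted p = 0.280). Gclm, the modifier subunit of the enzyme that starts glutathione synthesis, had 70.8 to 87.9 FPKM in KO livers and 60.1 to 71.1 FPKM in WT livers (log2 change 0.35 ± 0.12, SE, adjusted p = 0.263); a same-strand gene model overlaps it. In the KO livers Gstm3 was highest in KO 1 and KO 4 and lowest in KO 3, within the WT range.

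Of the heat shock genes, 19 of 24 were higher and 5 lower (median log2 change 0.29), with 7 higher and 0 lower at an unadjusted p under 0.05. Chordc1, a partner of HSP90, was read at 17.9, 29.8, 17.8 and 18.6 FPKM in KO livers, against 13.4, 11.1, 12.5 and 12.9 FPKM in WT livers (log2 change 0.68 ± 0.19, SE, adjusted p = 0.202), and Hspb8, a small heat shock protein of the BAG3 complex, at 146, 174, 119 and 151 FPKM in KO livers, against 117, 88.99, 92.6 and 107 FPKM in WT livers (log2 change 0.41 ± 0.12, SE, adjusted p = 0.207). Hspa8, the constitutive HSP70, was read at 178, 191, 169 and 179 FPKM in KO livers, against 126, 128, 145 and 143 FPKM in WT livers (log2 change 0.40 ± 0.12, SE, adjusted p = 0.207). In all 3, every KO liver was above every WT liver, and in Chordc1 and Hspb8 KO 2 was the highest. Without WT 1, 19 of 24 were higher and 5 lower (median 0.29) in the list, and without WT 2 and WT 4 there were 19 higher and 5 lower (median 0.22). The median deviation of the list was 0.08, 0.39, -0.04 and 0.06 in KO livers, against -0.02, -0.20, -0.10 and -0.09 in WT livers. It was highest in KO 2, and KO 3 lay below WT 1.

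The heat shock element is the motif bound by HSF1; its core of facing repeats, GAANNTTC (N, any base), reads the same on both strands. It is in capitals in the RefSeq promoters (GRCm38.p6, 300 bases, 5′ to 3′ on the gene's strand) of the leading members:
Chordc1, chr9:18292017-18292316, plus strand: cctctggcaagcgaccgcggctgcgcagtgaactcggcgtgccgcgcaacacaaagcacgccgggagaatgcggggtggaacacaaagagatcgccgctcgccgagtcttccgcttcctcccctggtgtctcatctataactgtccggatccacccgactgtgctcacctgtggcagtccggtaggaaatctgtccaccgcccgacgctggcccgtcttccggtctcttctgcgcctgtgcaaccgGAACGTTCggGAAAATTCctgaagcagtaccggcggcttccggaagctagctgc
Hspb8, chr5:116422815-116423114, minus strand: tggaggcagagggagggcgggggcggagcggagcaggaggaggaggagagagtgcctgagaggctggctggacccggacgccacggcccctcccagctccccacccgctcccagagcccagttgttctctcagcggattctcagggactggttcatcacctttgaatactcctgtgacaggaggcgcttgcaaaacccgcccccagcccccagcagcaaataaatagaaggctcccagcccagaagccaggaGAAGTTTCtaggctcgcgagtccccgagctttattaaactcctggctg
Of 18 heat shock genes with a promoter in the table, 10 (55.6%) held it, against 7.95% of 27025 promoters. These shares describe letters in a list of heat shock genes. They do not compare KO with WT livers, and binding of HSF1 was not tested.

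In the unfolded protein response list 19 of 28 were higher and 9 lower (median log2 change 0.09), with 3 higher and 0 lower at an unadjusted p under 0.05. The list's median deviation was 0.24 in KO 2 and -0.22 in WT 3, and between -0.02 and 0.04 in all other livers of both genotypes. Derl3, a component of the removal of misfolded proteins from the endoplasmic reticulum, was read at 14.1, 10.3, 7.30 and 8.44 FPKM in KO livers, against 5.43, 1.80, 4.74 and 1.96 FPKM in WT livers (log2 change 1.38 ± 0.37, SE, adjusted p = 0.193), and Manf, a secreted factor of the stressed reticulum, at 61.9, 108, 71.5 and 77.02 FPKM in KO livers, against 65.03, 42.7, 46.6 and 45.04 FPKM in WT livers (log2 change 0.61 ± 0.24, SE, adjusted p = 0.286). Derl3 did not overlap; its change in hepatocytes was -0.17 ± 0.35 (interaction 1.56 ± 0.50, unadjusted p = 0.00670, adjusted p = 0.417). Manf is overlapped by Rbm15b on the same strand, and its count is uncertain.

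Ribosomal protein genes are short, and their count depended on the correction and on WT 2 and WT 4. Of the cytosolic ribosomal proteins, whose median length was 930 bases, 61 of 75 were higher and 14 lower (median log2 change 0.18), with 23 higher and 3 lower at an unadjusted p under 0.05; as counted there were 70 higher and 5 lower (median 0.34), and without WT 2 and WT 4, after correction, 34 higher and 41 lower (median -0.01). Rps27 was read at 1165, 1010.4, 607 and 864 FPKM in KO livers, against 778, 362, 576 and 389.7 FPKM in WT livers (0.51 ± 0.15 after correction and 0.77 as counted; adjusted p = 0.207). Rps25 had 298 to 425 FPKM in KO livers and 192 to 284 FPKM in WT livers (0.33 ± 0.09, and 0.61 as counted), and Rps24 330.1 to 450.4 FPKM in KO livers and 169 to 334 FPKM in WT livers (0.42 ± 0.12, and 0.64). Ribosomal protein genes have many processed copies in the genome among which reads can be lost or shared. Nuclear genes of oxidative phosphorylation, with a median length of 971 bases, were close to even once the trend was removed, when 45 of 75 were higher and 30 lower (median log2 change 0.05), with 5 higher and 4 lower at an unadjusted p under 0.05; as counted there were 66 higher and 9 lower (median 0.24), and without WT 2 and WT 4, after correction, 23 higher and 52 lower (median -0.06). Cox7a2, a subunit of complex IV, was read at 252, 222, 182 and 181 FPKM in KO livers, against 168, 91.2, 155 and 107 FPKM in WT livers (log2 change 0.41 ± 0.12, SE, adjusted p = 0.207), and Ndufs4, a subunit of complex I, had 50.9 to 68.9 FPKM in KO livers and 28.8 to 47.8 FPKM in WT livers (log2 change 0.40 ± 0.12, SE, adjusted p = 0.207). Ndufb10, also of complex I, had 167 to 213 FPKM in KO livers and 151 to 236 FPKM in WT livers, at a log2 change of -0.25 ± 0.09 after correction and 0.00 as counted.

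Transcripts encoded by the mitochondrial genome were on the other side. For these, 0 of 13 were higher and 13 lower (median log2 change -0.33), with 0 higher and 4 lower at an unadjusted p under 0.05, as counted there were 3 higher and 10 lower (median -0.12), and without WT 2 and WT 4, after correction, 2 higher and 11 lower (median -0.23). mt-Nd6, the subunit encoded on the light strand, was read at 1094, 1083, 1475 and 1826 FPKM in KO livers, against 1772, 2416, 2113 and 2309 FPKM in WT livers (log2 change -1.02 ± 0.29, SE, adjusted p = 0.206; called without WT 1), and mt-Nd5, also of complex I, at 2086, 2085, 2792 and 3062 FPKM in KO livers, against 2964, 3606, 3119.6 and 3667 FPKM in WT livers (log2 change -0.54 ± 0.21, SE, adjusted p = 0.281). mt-Nd4l was at 4.85 to 10.7 FPKM in KO livers and 8.84 to 21.6 FPKM in WT livers (log2 change -1.48 ± 0.43, SE, adjusted p = 0.207). mt-Nd5 and mt-Nd6 overlap on opposite strands, and mt-Nd4l shares bases with mt-Nd4, so single values are uncertain. The summed level was 39319 to 45058 FPKM in KO livers and 41748 to 51403 FPKM in WT livers, with overlap.

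Matrix genes are long, and their direction depended on the correction. Of the collagens, whose median length was 6338 bases, 10 of 19 were higher and 9 lower (median log2 change 0.01), against 4 higher and 15 lower (median -0.28) as counted. Without WT 1, 5 of 19 were higher and 14 lower (median -0.13), and without WT 2 and WT 4 there were 11 higher and 8 lower (median 0.19). Col18a1, the basement membrane collagen from which endostatin is cut and the most abundant named here, was read at 109, 123, 142 and 133 FPKM in KO livers, against 129, 269, 139 and 225 FPKM in WT livers, with WT 2 and WT 4 high (log2 change -0.33 ± 0.12, SE, adjusted p = 0.263; as counted -0.57). Col5a2, a chain of fibrillar collagen V, was read at 0.509, 0.562, 0.589 and 0.944 FPKM in KO livers, against 0.284, 0.585, 0.406 and 0.547 FPKM in WT livers (log2 change 0.75 ± 0.27, SE, adjusted p = 0.259). Of the matrix glycoproteins and proteoglycans, 25 of 40 were higher and 15 lower (median log2 change 0.04), against 17 higher and 23 lower (median -0.09) as counted and 34 higher and 7 lower (median 0.25) without WT 2 and WT 4. Fn1, fibronectin, which hepatocytes make as the plasma form, was read at 73.00, 80.7, 108 and 109 FPKM in KO livers, against 101, 256, 122 and 222 FPKM in WT livers, with WT 2 and WT 4 high (log2 change -0.55 ± 0.14, SE, adjusted p = 0.193; as counted -0.91; called without WT 1). KO livers lay below WT livers on the corrected scale.

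Receptors for growth factors and hormones, with a median length of 5614 bases, were even once the trend was removed, when 17 of 34 were higher and 17 lower (median log2 change -0.02), with 2 higher and 5 lower at an unadjusted p under 0.05; as counted there were 10 higher and 24 lower (median -0.25). Esr1, estrogen receptor alpha, was read at 1.71, 1.77, 1.84 and 2.46 FPKM in KO livers, against 2.28, 3.53, 3.76 and 4.34 FPKM in WT livers (log2 change -0.62 ± 0.19, SE, adjusted p = 0.207), and Insr, the insulin receptor, at 7.19, 8.10, 9.80 and 9.79 FPKM in KO livers, against 8.61, 18.9, 9.75 and 18.97 FPKM in WT livers (log2 change -0.28 ± 0.11, SE, adjusted p = 0.313; as counted -0.68). Of the growth hormone axis, 15 of 22 were higher and 7 lower (median log2 change 0.19), with 3 higher and 2 lower at an unadjusted p under 0.05. Igfals, the acid-labile subunit that holds IGF1 in blood, was read at 65.4, 51.4, 72.4 and 68.6 FPKM in KO livers, against 83.2, 84.3, 73.4 and 76.2 FPKM in WT livers (log2 change -0.38 ± 0.12, SE, adjusted p = 0.214), and Stat5b, the growth hormone effector, had 9.53 to 13.4 FPKM in KO livers and 13.9 to 19.1 FPKM in WT livers (log2 change -0.35 ± 0.12, SE, adjusted p = 0.246). The circadian clock genes were 8 higher and 12 lower (median -0.19) as counted, and with the trend removed 11 of 20 were higher and 9 lower (median log2 change 0.02).

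**Figure D5:**
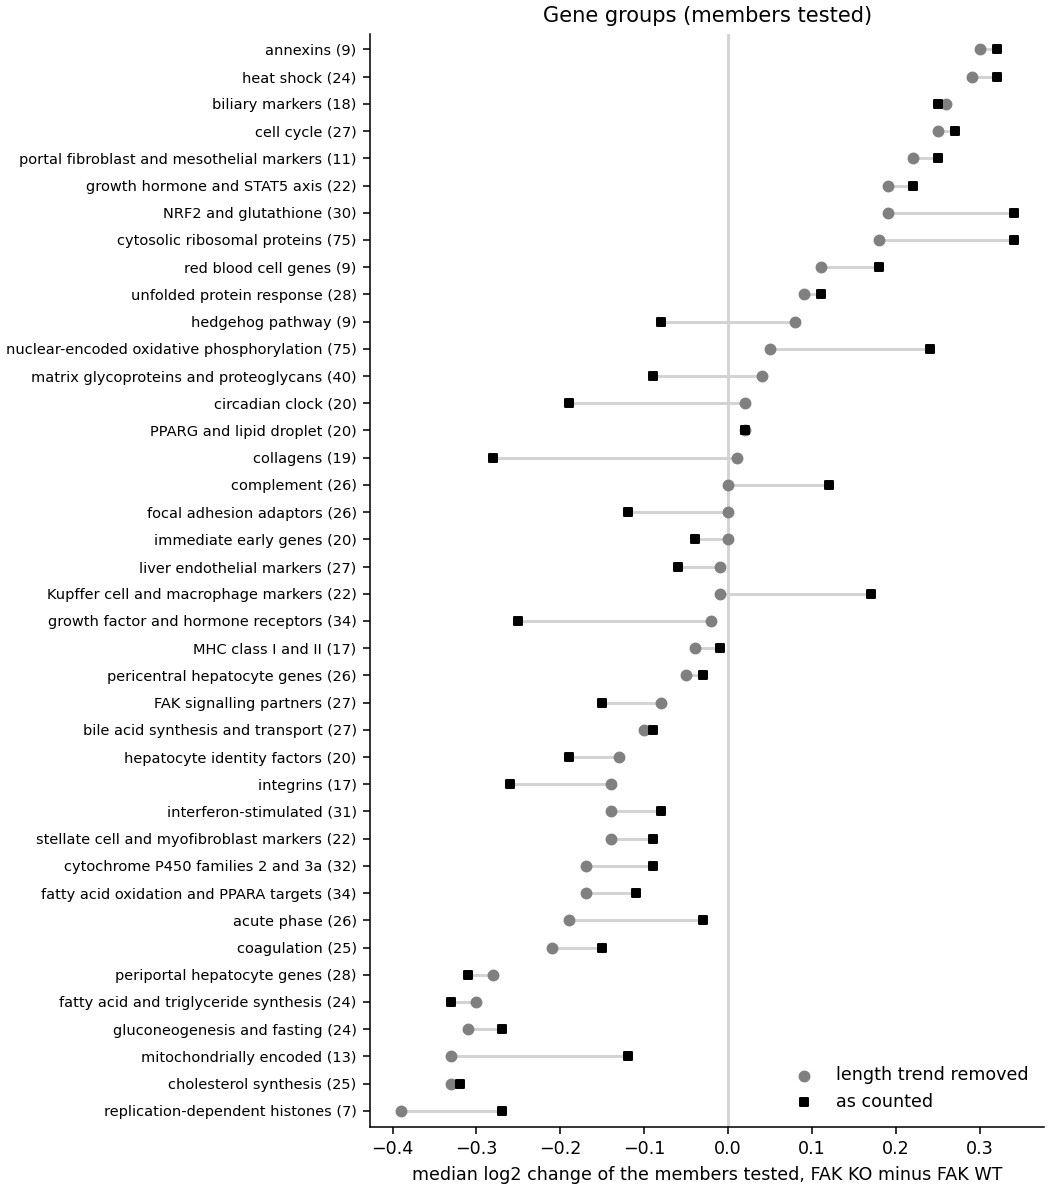
Median log2 change of the tested members of each gene list with at least 5 of them, FAK KO minus FAK WT whole liver (x axis), with the length trend removed (grey circles) and as counted (black squares); the number tested is in parentheses. Collagens, growth factor receptors and the circadian clock cross or reach 0 with the correction, and cholesterol synthesis and gluconeogenesis stay near -0.3 in both.

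Cell cycle genes were at low levels and mostly higher: 23 of 27 were higher and 4 lower (median log2 change 0.25), with 3 higher and 0 lower at an unadjusted p under 0.05 (without WT 1, 19 of 29 were higher and 10 lower (median 0.18)). The summed level, which keeps the length trend, was 46.6 to 57.3 FPKM in KO livers and 39.5 to 46.1 FPKM in WT livers, with no overlap. With the trend removed, the list's median deviation from the mean of the 8 livers did overlap. It was -0.0, 0.23, 0.15 and 0.31 in KO livers, against -0.23, -0.18, 0.26 and -0.31 in WT livers. Ccnd1, cyclin D1, was read at 7.63, 9.70, 7.63 and 7.16 FPKM in KO livers, against 5.08, 7.02, 6.12 and 6.02 FPKM in WT livers (log2 change 0.45 ± 0.19, SE, adjusted p = 0.321), and E2f1, a transcription factor of S phase entry, at 1.95, 1.90, 1.77 and 2.15 FPKM in KO livers, against 1.56, 1.46, 1.39 and 0.743 FPKM in WT livers (log2 change 0.58 ± 0.24, SE, adjusted p = 0.307). Tyms, thymidylate synthase, had 1.81 to 2.34 FPKM in KO livers and 1.43 to 1.88 FPKM in WT livers (log2 change 0.47 ± 0.21, SE, adjusted p = 0.357). Of the immediate early genes, 10 of 20 were higher and 10 lower (median log2 change 0.00), and without WT 2 and WT 4 there were 15 higher and 6 lower (median 0.23). Egr1, an immediate early factor, was read at 0.564, 1.62, 0.680 and 0.378 FPKM in KO livers, against 0.779, 7.07, 2.24 and 2.31 FPKM in WT livers, highest in WT 2 (log2 change -1.77 ± 0.65, SE, adjusted p = 0.271), and Jund, a JUN family member, had 21.8 to 27.6 FPKM in KO livers and 16.3 to 21.6 FPKM in WT livers (log2 change 0.32 ± 0.13, SE, adjusted p = 0.321).

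Blood and immune genes stayed at low or mixed levels. Of the interferon-stimulated genes, 8 of 31 were higher and 23 lower (median log2 change -0.14), with 2 higher and 1 lower at an unadjusted p under 0.05; Bst2, tetherin, was read at 261, 277, 199 and 211 FPKM in KO livers, against 205, 112, 154 and 127 FPKM in WT livers (log2 change 0.39 ± 0.16, SE, adjusted p = 0.303). Lck, a kinase of T cells, was at 0.363 to 0.797 FPKM in KO livers and 0.122 to 0.264 FPKM in WT livers (log2 change 1.42 ± 0.48, SE, adjusted p = 0.243), and only 4 of the T, B and NK cell markers were expressed highly enough to test. Vwf, von Willebrand factor of endothelial cells, had 1.20 to 1.76 FPKM in KO livers and 0.648 to 1.67 FPKM in WT livers (log2 change 0.73 ± 0.32, SE, adjusted p = 0.347). Hbb-bs, a beta globin of red blood cells, was read at 354, 319, 375 and 313 FPKM in KO livers, against 235, 125, 344 and 109 FPKM in WT livers (log2 change 0.54 ± 0.25, SE, adjusted p = 0.374), while Hba-a2, an alpha globin, was read at 13.5, 10.8, 11.1 and 16.1 FPKM in KO livers, against 20.5, 22.2, 58.1 and 8.62 FPKM in WT livers (log2 change -1.32 ± 0.39, SE, adjusted p = 0.207), highest in WT 3. Hba-a1, another alpha globin gene, had 129 to 181 FPKM in KO livers and 70.1 to 174 FPKM in WT livers. Its log2 change was 0.31 (edgeR, unadjusted p = 0.170), opposite in sign to that of Hba-a2. How reads were divided between the 2 alpha globin genes was not tested, nor was the part of blood in these values. Of the other lists, red blood cell genes had 6 higher and 3 lower of 9 (median 0.11), MHC genes 6 higher and 11 lower of 17 (median -0.04), hedgehog pathway genes 5 higher and 4 lower of 9 (median 0.08), hepatocyte identity factors 7 higher and 13 lower of 20 (median -0.13), PPARG and lipid droplet genes 11 higher and 9 lower of 20 (median 0.02) and replication-dependent histones 2 higher and 5 lower of 7 (median -0.39). Without WT 2 and WT 4 the median turned in 3 of these, with 4 higher and 5 lower (median -0.16) for red blood cell genes, 11 higher and 7 lower (median 0.05) for MHC genes and 3 higher and 6 lower (median -0.12) for hedgehog genes. The T, B and NK cell markers had 3 higher and 1 lower of 4 (median 0.53), and the neutrophil and dendritic markers 1 higher and 1 lower of 2 (median 0.47).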

How the data were processed

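RNA was extracted from whole liver, depleted of ribosomal RNA, made into directional libraries and sequenced on an Illumina HiSeq; the authors used STAR to align reads to mm10 and HTSeq 0.6.1 to count reads in genes (the strand setting is not given in the sources used here). The deposited counts are whole reads per gene, not normalized, and the deposited FPKM values were computed by the authors from those counts and gene lengths.

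edgeR 4.0.16 (R 4.3.3) fitted the 16 libraries of whole liver and isolated hepatocytes as 4 groups, with TMM scaling, genes of at least 10 counts in enough libraries (15 in total), and Benjamini-Hochberg adjustment over 12507 genes at 0.05. The second fit added an offset per library, a natural spline with 5 degrees of freedom of each gene's log2 deviation on log2 gene length. DDC-fed livers were fitted apart (13955 genes). Alternatives used DESeq2 1.42.0 and limma 3.58.1; steps were tested on simulated data. Exact permutation tests were two-sided.

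Named genes were Ptk2 and Ptk2b, all called genes, the 12 largest changes each way among non-overlapping genes of at least 1 FPKM with a known name and the same sign in both fits, from each list the 3 genes of lowest p, and a fixed set; most but not all are printed. They and the 43 lists were chosen with earlier results of these data known. Promoters came from RefSeq (GRCm38.p6). Same-strand genes also overlap Glul (Mir8114), Hspa8 (Snord14c, Snord14d and Snord14e) and Lck (Mir8119). The part of these overlaps in the counts was not tested. Library pairs within a group differed by more than sampling noise.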

Additional observations from a re-analysis of the deposited data

Results flagged for a closer look

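In each group of 4 livers, the gap of the highest or lowest FPKM value to its neighbour was compared with the group's range (Dixon's criterion, for 93 genes and 186 groups). Chance alone flags about 1 group in 20, and 6 of 186 were found. Among KO livers, KO 2 stood apart for Cxcl14 (9.85 FPKM, the others 2.01 to 2.74), Tes (2.42 FPKM, the others 0.558 to 0.863) and Chordc1 (29.8 FPKM, the others 17.8 to 18.6). KO 1 stood apart for Gclm (87.9 FPKM, the others 70.8 to 72.4) and KO 3 for Slc26a10 (4.05 FPKM, the others 2.75 to 2.85). Among WT livers, WT 3 stood apart for Fam131c (11.4 FPKM, the others 4.58 to 4.69). In Cxcl14, Tes, Chordc1, Gclm and Slc26a10 the other KO livers were also above all WT livers in FPKM, except that 2 KO values of Gclm lay under the highest WT value.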

How the results depend on the processing

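Ptk2 was called in all 21 settings. With the length trend removed, 2 genes were called in the whole liver comparison; this was 113 with DESeq2, 3 with no count filter, 1 with the 8 tissue libraries alone, 1 without WT 2 and WT 4, 1 with GC content and length trends removed, 5 and 6 with limma on log2(FPKM + 1) and log2(FPKM + 0.1), and 1 to 234 when each library was left out in turn, the highest being without WT 1. As counted, 1 gene was called; this was 140 with DESeq2, 2 with no count filter, 9 and 7 with limma, and 1 to 994 when each library was left out in turn. Leaving out WT 1 and KO 4 together, chosen after seeing the data, gave 503 calls with the trend removed and 1462 as counted. The interaction with hepatocytes had 0 calls in both fits; it had 53 (removed) and 36 (as counted) with DESeq2, 2 and 3 with no count filter, 0 and 3 with either limma, 0 to 4 leaving out each library, and 17 and 2 without WT 1 and KO 4. Calls of 1 or 2 genes make ratios between settings coarse. The cause of these differences was not tested.

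Over the named genes and all settings, 1892 values kept their sign and their side of the threshold, 41 passed it only under the alternative, 12 no longer passed it and 8 turned sign. Signs turned for genes whose change lay within its SE of 0: Ptk2b (-0.17 to 0.04 leaving out each library, 0.04 being without WT 2, 0.13 without WT 2 and WT 4, 0.20 with the length slope as a covariate), Gstm2 (-0.09 to 0.25 leaving out each library, -0.05 without KO 4 and -0.09 without WT 1, -0.23 without WT 1 and KO 4) and Glul (0.02 with the slope covariate). The sign of Ndufb10 turned too (0.00 as counted), although its change after correction was larger than its SE. Replicate numbers are shared between groups, but same-numbered livers did not deviate together (correlations -0.068 to 0.167 with the trend removed, against -0.213 to 0.164 for other pairs). The fit with a replicate block called 2 genes (1 as counted) and 0 for the interaction; in the DDC-fed livers of the bred cross it called 1735, against 872 without the block. Genes under about 1 FPKM rest on few reads, and depth limits their precision.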
